A study of Mus musculus with 2 samples.

Results

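The genes described here are the receptors and ligands of the vascular endothelial growth factor (VEGF) and angiopoietin systems, 10 of the 50768 features counted in both single-cell libraries of mouse salivary gland. They were taken by symbol, and comprise 7 receptor genes (*Kdr*, *Flt1*, *Flt4*, *Nrp1*, *Nrp2*, *Tek* and *Tie1*) and 3 ligand genes (*Vegfa*, *Vegfb* and *Vegfc*). The 2 libraries compared female NOD/ShiLtJ mice, an inbred strain that develops diabetes and lymphocytic infiltrates of the salivary gland and is used as a model of Sjögren's disease, with female outbred CD1 mice, both at 20 weeks of age. In each strain the submandibular and sublingual glands of several mice were pooled before dissociation, dead cells were removed, and EpCAM+ and Ter119+ cells were depleted to enrich the stroma. Both libraries are labelled as the same batch. With 1 pooled library per strain, strain, pool and library cannot be told apart.

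VEGF-A signals to blood endothelium mainly through VEGFR2, whereas VEGFR1 binds VEGF-A and VEGF-B tightly with little kinase activity, and VEGFR3 is the receptor for VEGF-C on lymphatic endothelium. The neuropilins are co-receptors that bind VEGFs and semaphorins. The angiopoietins act through Tie2, with Tie1 as its partner, to keep vessels stable, and in glands much of this signalling runs between capillaries and the cells around them.

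Of the barcodes with at least 500 UMIs (unique molecular identifiers, counted transcripts) and 300 genes, 6500.0 were kept in NOD/ShiLtJ and 7014 in CD1, with medians of 5719.5 and 6495 UMIs, and 18 barcode sequences occurred in both libraries. Endothelial-like cells numbered 953 in NOD/ShiLtJ (14.7% of the kept barcodes) and 2455 in CD1 (35.0%). They were named by a list of endothelial genes without any of the 10 members, and the list summed to 6561 and 7594 CPM (counts per 1000000 UMIs of the class). Marker lists of other cells gave 61.0 and 68.6 CPM (macrophage) and 102 and 3.83 CPM (T cell) in the same NOD/ShiLtJ and CD1 cells. With 1 library per strain no test was possible. Each level below adds the UMIs of all cells in a class within 1 library, and each comparison is a log2 ratio with an exact 95% interval that covers counting error only, not the difference between mice.

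Much of what follows turns on *Kdr*, *Flt1*, *Nrp1* and *Vegfc*, so the 250 bases before their annotated starts are shown here from RefSeq on build GRCm38.p6, each 5′ to 3′ on the strand of its gene. The promoter of *Kdr* lies at chr5:75978456-75978705 on the minus strand, that of *Flt1* at chr5:147726012-147726261 on the minus strand, that of *Nrp1* at chr8:128358823-128359072 on the plus strand and that of *Vegfc* at chr8:54077282-54077531 on the plus strand. Capitals mark matches to CNGGAAG on either strand, letters of the kind that ETS factors, regulators of endothelial genes, bind, and the *Kdr* and *Vegfc* windows held none.
Kdr: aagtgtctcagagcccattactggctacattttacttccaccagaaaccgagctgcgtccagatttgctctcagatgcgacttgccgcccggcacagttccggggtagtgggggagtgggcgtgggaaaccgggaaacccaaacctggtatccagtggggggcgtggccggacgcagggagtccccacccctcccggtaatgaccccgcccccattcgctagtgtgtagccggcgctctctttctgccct
Flt1: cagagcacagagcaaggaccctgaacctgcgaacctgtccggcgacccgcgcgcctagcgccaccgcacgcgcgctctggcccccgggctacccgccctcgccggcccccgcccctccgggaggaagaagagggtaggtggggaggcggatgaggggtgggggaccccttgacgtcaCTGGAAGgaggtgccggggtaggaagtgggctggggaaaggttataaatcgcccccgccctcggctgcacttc
Nrp1: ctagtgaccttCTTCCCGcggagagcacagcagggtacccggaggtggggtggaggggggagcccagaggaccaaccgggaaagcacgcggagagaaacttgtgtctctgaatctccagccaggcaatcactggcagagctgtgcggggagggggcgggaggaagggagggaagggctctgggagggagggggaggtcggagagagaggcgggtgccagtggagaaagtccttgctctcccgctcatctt
Vegfc: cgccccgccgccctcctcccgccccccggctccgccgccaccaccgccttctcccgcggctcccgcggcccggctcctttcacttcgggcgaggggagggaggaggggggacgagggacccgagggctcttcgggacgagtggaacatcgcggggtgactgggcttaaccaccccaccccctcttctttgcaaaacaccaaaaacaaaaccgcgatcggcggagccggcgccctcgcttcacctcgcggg
Matches of this kind occurred before 4 of the 10 genes, all of them receptor genes (*Flt1*, *Flt4*, *Nrp1* and *Tie1*), against 26.6% of 32851 RefSeq promoters of the same length. The letters ACGTG, of the kind bound by hypoxia-inducible factors, occurred in 0 of the 10 windows and in 16.6% of all promoters, and a further RefSeq start of *Vegfa* held 1 match. A match is a description of the letters only.

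Endothelial zones were set by UMIs of a marker gene, *Plvap* for capillary, *Sema3g* for arterial and *Ackr1* for venous cells, with arterial and venous UMIs taking precedence over *Plvap* and with barcodes carrying lymphatic markers (7 and 19) or both *Sema3g* and *Ackr1* (3 and 4) set aside. The capillary gate held 705 NOD/ShiLtJ and 1754 CD1 cells, the arterial gate 173 and 543 and the venous gate 12 and 20, while 53 and 115 cells had none of the 3 genes. The other arterial markers summed to 1387 CPM in the arterial gate against 339 in the capillary gate of NOD/ShiLtJ, and to 1241 against 421 in CD1. *Plvap* was nevertheless found in 90.2% and 95.6% of the arterial cells, and 68 of the 173 NOD/ShiLtJ and 265 of the 543 CD1 arterial cells entered with a single UMI of *Sema3g*. The capillary and arterial gates therefore overlap in the markers they hold. In the venous gate the other venous markers summed to 1287 CPM in NOD/ShiLtJ and 1494 in CD1. The other capillary markers summed there to 932 CPM in NOD/ShiLtJ and to 3267 in CD1, where the capillary gate held 3230. Of the 12 and 20 venous cells, 6 and 13 entered with a single UMI of *Ackr1*. The venous gates of the strains therefore differ in the capillary markers they hold.

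*Kdr*, which encodes VEGFR2, was highest in the capillary gate of both strains. In NOD/ShiLtJ it stood at 1969 CPM in capillary, 1491 in arterial and 1238 in venous cells. In CD1 the levels were 2851, 2399 and 2147 CPM. The order was the same in both libraries, with log2 ratios of arterial to capillary cells of -0.40 in NOD/ShiLtJ and -0.25 in CD1. The venous sum of NOD/ShiLtJ rests on 101 UMIs, with an interval of 1008 to 1504 CPM that overlaps the arterial one.

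*Flt1*, which encodes VEGFR1 and its soluble form, is counted here without separating those forms. It stood at 4747 CPM in capillary, 3714 in arterial and 3151 in venous cells of NOD/ShiLtJ, and at 5321, 4768 and 3983 CPM in CD1. The order matched that of *Kdr*, and arterial cells lay below capillary cells by log2 ratios of -0.35 and -0.16. *Flt4*, which encodes VEGFR3, was flat between capillary (110 and 117 CPM) and arterial cells (105 and 108 CPM). In the venous gate *Flt4* had only 5 and 10 UMIs. Barcodes with UMIs of lymphatic markers, 7 in NOD/ShiLtJ and 19 in CD1, held *Flt4* at 120.3 and 81.2 CPM from 7 and 18 UMIs, with intervals that include the capillary levels, and no cluster met the lymphatic list.

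The neuropilins went in different directions toward the venous side. *Nrp1* kept the order of *Kdr* in NOD/ShiLtJ, from 3074 CPM in capillary to 2243 in arterial and 1348 in venous cells. In CD1 it stood at 3868, 3119 and 3130 CPM, so that arterial and venous cells did not differ beyond counting error. *Nrp2*, which in vessels is known from veins and lymphatics, was lowest in arterial cells (93.2 and 119 CPM), higher in capillary cells (154 and 179.7 CPM) and highest in venous cells, at 503 CPM in NOD/ShiLtJ and 326 CPM in CD1 from 41 and 62 UMIs. *Nrp2* thus ran opposite to *Nrp1* between venous and capillary cells of NOD/ShiLtJ, with log2 ratios of 1.71 (1.22 to 2.16) and -1.19 (-1.47 to -0.92).

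*Tek*, which encodes Tie2, stood at 731 CPM in capillary, 552 in arterial and 613 in venous cells of NOD/ShiLtJ and at 611, 554 and 626 CPM in CD1. *Tie1* stood at 291, 245 and 233 CPM in NOD/ShiLtJ and at 287, 259.7 and 326 CPM in CD1. *Tek* was lower in arterial than in capillary cells of NOD/ShiLtJ by a log2 ratio of -0.41, about the step of *Kdr*, and by -0.14 in CD1, and *Tie1* by -0.25 and -0.14. For both genes the venous interval included the capillary level in each strain.

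**Figure D1:**
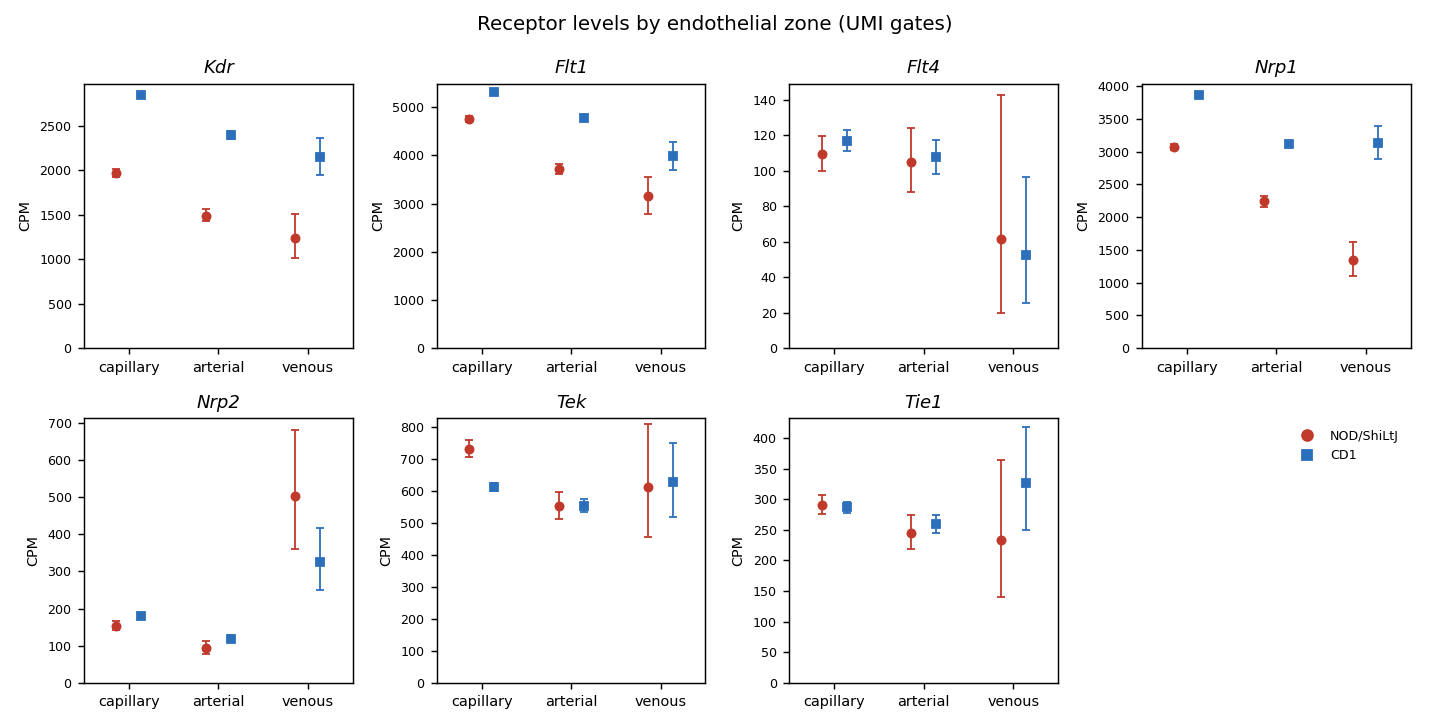
Levels of the 7 receptor genes (CPM, y axis from 0) in capillary, arterial and venous gates of the NOD/ShiLtJ (circles) and CD1 (squares) libraries, with exact 95% Poisson intervals as bars. *Kdr* reached 1969 and 2851 CPM in capillary cells and was lower in the other gates of each strain, while *Nrp2* was highest in venous cells, where only 12 and 20 cells were found.

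Counted over the 10 members, 1 was past 2-fold between arterial and capillary cells in each strain, where 9.17% of all genes tested were past 2-fold in NOD/ShiLtJ and 6.12% in CD1. That member was *Vegfc*, a ligand, which was higher in arterial cells. Between venous and capillary cells 3 members were past 2-fold in NOD/ShiLtJ (*Nrp1* lower, *Nrp2* and *Vegfc* higher) and 1 in CD1 (*Flt4* lower, from 10 venous UMIs), where the shares of all genes were 44.3% and 32.5%. These venous shares come with sums of few cells, and the members' counts are not set apart from them.

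Clustering of the endothelial-like cells on their other genes left the 10 members out of the features. From capillary to arterial cells it gave wider steps of *Kdr*, *Nrp1* and *Flt1* than the gates. The venous step of *Flt1* was narrower, at log2 -0.23 in NOD/ShiLtJ and -0.18 in CD1 against -0.59 and -0.42 between the gates. A sub-cluster with *Car4*, a capillary gene, among its leading genes held 332 NOD/ShiLtJ and 964 CD1 cells. Its best list was the capillary one, but 0 markers of that list were raised and it stayed unnamed. An arterial-like sub-cluster led by *Fbln5* and *Edn1* held 93 and 192 cells, and a venous-like one led by *Selp* held 75 and 176. *Kdr* stood at 2329 and 3122 CPM in the *Car4* sub-cluster, at 752 and 1012 CPM in the arterial-like one and at 1200.3 and 1697 CPM in the venous-like one. The arterial-like level of *Kdr* was thus lower by the same log2 ratio in both strains, -1.63 (-1.77 to -1.49) in NOD/ShiLtJ and -1.63 (-1.71 to -1.55) in CD1, a far wider step than between the gates.

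*Nrp1* showed a similar step, with 3440 and 4191 CPM in the *Car4* sub-cluster, 1510 and 1594 CPM in the arterial-like and 1941 and 2160 CPM in the venous-like cells. For *Flt1* the arterial-like cells lay at log2 ratios of -0.89 and -0.85, and the venous-like cells at -0.23 and -0.18. *Nrp2* was lowest in arterial-like cells (45.7 and 89.4 CPM) and highest in venous-like cells (328 and 258 CPM). *Tek* was highest in venous-like cells, at 969 and 933 CPM against 749.8 and 567 CPM in the *Car4* sub-cluster, log2 0.37 (0.22 to 0.52) and 0.72 (0.63 to 0.81). *Tie1* lay lower in arterial-like cells only, at log2 -0.71 (-1.01 to -0.43) in NOD/ShiLtJ and -0.54 (-0.73 to -0.35) in CD1.

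Of the other sub-clusters, 3 had *Kdr* above the arterial-like and venous-like levels in both strains. *Kdr* stood at 2003 and 2846 CPM in the cells with *Gja4* and *Esm1* among their leading genes, whose best list was the arterial one though too few markers were raised to name them, at 1816 and 2738 CPM in those led by *Insr* and at 2087 and 3136 CPM in those led by the interferon gene *Ifit3* (60 and 69 cells). *Flt1* in the *Ifit3* cells stood at 5638 and 5497 CPM, so this was a sub-cluster in which *Flt1* was not lower in NOD/ShiLtJ. *Tek* was lowest of these in the *Gja4* cells, at 560.4 and 475 CPM, and *Vegfc* was low in all 3, between 15.1 and 22.4 CPM in NOD/ShiLtJ and between 32.9 and 61.9 CPM in CD1. In the sub-clusters of few UMIs, of macrophage genes and of T cell genes, *Kdr* was lower, at 1064, 1142 and 1004 CPM in NOD/ShiLtJ and 1578, 1995 and 2295 CPM in CD1.

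In the arterial-like against the *Car4* sub-cluster, 5 members of 10 were past 2-fold in NOD/ShiLtJ (*Kdr*, *Nrp1*, *Nrp2* and *Vegfb* lower, *Vegfc* higher), where 16.7% of all genes were, and 3 in CD1 (*Kdr* and *Nrp1* lower, *Vegfc* higher), where 17.6% were. The *Vegfb* ratio rests on 3 UMIs in the arterial-like and 35 in the *Car4* cells. In the venous-like sub-cluster 3 members were past 2-fold in NOD/ShiLtJ (*Nrp2*, *Vegfa* and *Vegfc*, all higher), where 13.1% of all genes were, and 1 in CD1 (*Vegfc*), where 8.99% were. The *Vegfa* value is from 12 UMIs and its interval includes 0.

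**Figure D2:**
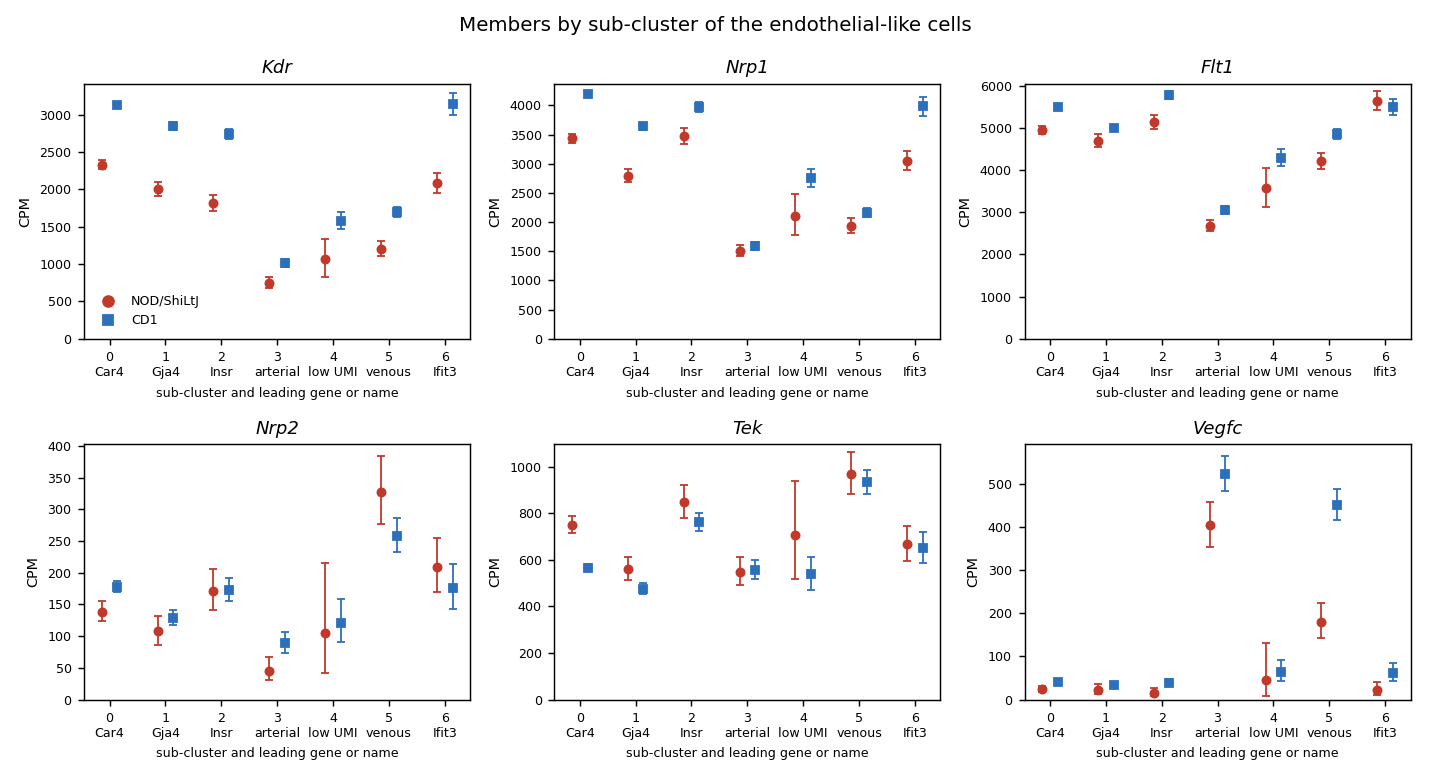
Levels of 6 members (CPM, y axis from 0) in 7 sub-clusters of the endothelial-like cells, NOD/ShiLtJ as circles and CD1 as squares, with exact 95% Poisson intervals. *Kdr*, *Nrp1* and *Flt1* were lowest in the arterial-like cells, *Tek* and *Nrp2* highest in the venous-like cells, and *Vegfc* was high in arterial-like and venous-like cells, at 405 and 523 CPM in the former.

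The strain comparison asks whether the endothelium of the NOD/ShiLtJ gland carries other receptor levels than that of CD1. Over all endothelial-like cells *Kdr* stood at 1829 CPM in NOD/ShiLtJ and 2712 in CD1, a log2 ratio of -0.57 (-0.60 to -0.54). *Nrp1* stood at 2845 and 3658 CPM, log2 -0.36 (-0.39 to -0.34), and *Flt1* at 4464 and 5146 CPM, log2 -0.20 (-0.22 to -0.19). *Tek* went the other way, at 692 CPM in NOD/ShiLtJ and 596 in CD1, log2 0.22 (0.16 to 0.27). *Kdr*, *Nrp1* and *Flt1* were therefore lower in the NOD/ShiLtJ library and *Tek* was higher, all by less than 2-fold and not at every depth. Below 5000 UMIs the *Flt1* ratio was -0.04 and -0.02, with intervals that include 0, and in cells under 2000 UMIs that of *Nrp1* was 0.09 (-0.14 to 0.31). With free RNA subtracted *Flt1* stood at 0.01.

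*Nrp2* was lower in NOD/ShiLtJ by a small margin, 143 against 165 CPM, log2 -0.21 (-0.32 to -0.10). *Flt4* (108 and 113 CPM, log2 -0.08, interval -0.20 to 0.05) and *Tie1* (279 and 280.1 CPM, log2 -0.00, interval -0.09 to 0.07) lay within counting error of equal levels. Among the ligand genes in these cells, *Vegfc* stood at 78.3 and 106 CPM, log2 -0.44 (-0.58 to -0.29), and the intervals of *Vegfa* (11.5 and 9.34 CPM) and *Vegfb* (11.5 and 11.6 CPM) included 0. Of the 10 members 0 were past 2-fold, against 12% of the 14126 genes with at least 20 UMIs, and the members' median log2 ratio was -0.14 against 0.08 over all genes.

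*Kdr* was lower in NOD/ShiLtJ in each of the 3 gates and in every sub-cluster. Its log2 ratio was -0.53 in the capillary gate, -0.69 in the arterial gate and -0.79 (-1.12 to -0.48) in the venous gate, and it ran from -0.42 in the *Car4* sub-cluster to -1.19 in a sub-cluster led by T cell genes. The venous direction turned to 0.36 when the gates were set on thinned cells, which left 2 and 3 venous cells. After each cell was thinned to 500 UMIs, *Kdr* was found in 53.0% of NOD/ShiLtJ and 70.8% of CD1 capillary cells and in 48.6% and 60.2% of arterial cells. Over all endothelial-like cells the thinned shares were 86.5% and 88.2% for *Flt1*, 70.8% and 77.9% for *Nrp1* and 28.5% and 24.7% for *Tek*, in the same directions as their levels. For *Kdr* in T-like cells thinned in the same way the shares were 0.300% and 2.16%. Without the sub-clusters led by macrophage or T cell genes the endothelial log2 ratio of *Kdr* was -0.51.

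Depth and free RNA moved with this ratio. The median depth of the endothelial-like cells was 5526 UMIs in NOD/ShiLtJ and 6817 in CD1. In those of 500 to under 2000 UMIs, 85 in NOD/ShiLtJ and 156 in CD1, *Kdr* stood at 1234 and 1362 CPM, log2 -0.14 (-0.46 to 0.17). The ratio was -0.30 from 2000 to under 5000 UMIs, -0.55 from there to under 10000 and -0.63 in deeper cells. Salivary secretory genes, which endothelium does not use, summed to 134 and 194 CPM in endothelial-like cells and to 824 and 14647 CPM in empty droplets, which puts free RNA at 16.2% and 1.32% of the endothelial UMIs. The same estimate exceeded 100% in other classes (194% in the macrophage-like cells of NOD/ShiLtJ), and 80.6% and 45.8% of the cells had no secretory UMI, so the NOD/ShiLtJ estimate is not a measured share and rests on few cells. With free RNA subtracted at these shares, *Kdr* stood at log2 -0.36. *Kdr* in the empty droplets stood at 124 and 592 CPM.

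*Tek* was higher in NOD/ShiLtJ in capillary cells, log2 0.26 (0.20 to 0.32), and level in arterial cells, log2 -0.00 (-0.13 to 0.12). By sub-cluster the *Tek* ratio was 0.40 (0.33 to 0.48) in the *Car4* cells, 0.24 in those led by *Gja4*, 0.15 in those led by *Insr*, -0.02 in arterial-like and 0.06 in venous-like cells. Whether the *Tek* ratio differed between sub-clusters beyond the difference between mice was not tested. By depth it was 0.47 from 2000 to under 5000 UMIs and 0.02 (-0.08 to 0.12) in cells of 10000 UMIs or more. *Nrp1* was lower in NOD/ShiLtJ capillary (log2 -0.33) and arterial gates (log2 -0.48), but in the arterial-like sub-cluster its ratio was -0.08 (-0.19 to 0.04).

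**Figure D3:**
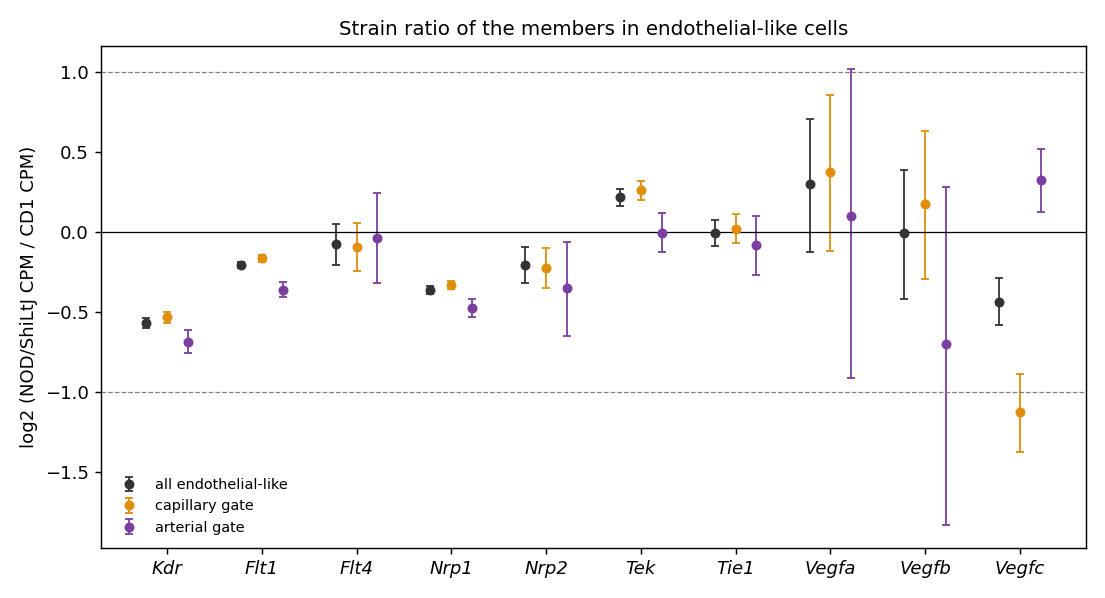
Log2 ratio of NOD/ShiLtJ to CD1 CPM (y axis) for the 10 members in all endothelial-like cells, the capillary gate and the arterial gate, with 95% intervals for counting error and dashed lines at 2-fold. *Kdr* lay at -0.57, -0.53 and -0.69, and *Vegfc* at -1.13 in capillary and 0.32 in arterial cells.

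In the capillary gate 1 of 10 members was past 2-fold between strains (*Vegfc*, lower in NOD/ShiLtJ), where 11.5% of all genes were, and in the arterial gate 0 of 10 were, where 9.1% of all genes were. In the venous gate 7 members had at least 20 UMIs and 1 was past 2-fold (*Nrp1*, 1348 against 3130 CPM, log2 -1.21, interval -1.52 to -0.92), where 19.8% of all genes were and the median of all genes lay at -0.13. With the venous-like sub-cluster in place of the gate, *Nrp1* stood at 1941 and 2160 CPM, log2 -0.15. Of the 12 NOD/ShiLtJ and 20 CD1 cells of the venous gate, 7 and 7 lay in that sub-cluster. *Nrp2* in the venous gate was higher in NOD/ShiLtJ, log2 0.62 (0.02 to 1.22).

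**Figure D4:**
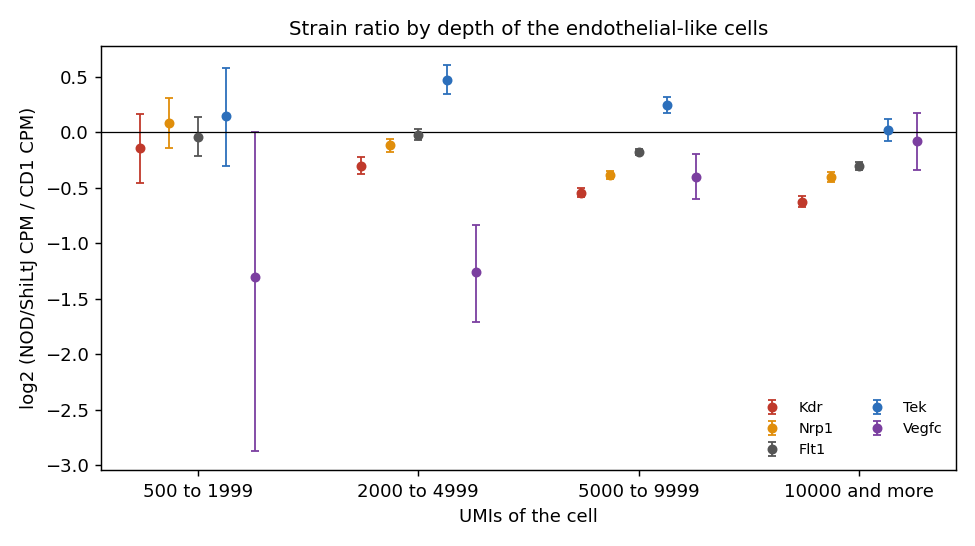
Log2 ratio of NOD/ShiLtJ to CD1 CPM (y axis) for 5 members in endothelial-like cells binned by their UMIs (x axis), with 95% intervals for counting error. *Kdr* ran from -0.14 in the shallowest to -0.63 in the deepest cells, whereas *Vegfc* ran from -1.31 to -0.08.

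*Vegfc*, the ligand of VEGFR3, was the member that varied most within the endothelium. It stood at 37.0 CPM in the capillary gate and 221 in the arterial gate of NOD/ShiLtJ, and at 80.9 and 177 CPM in CD1, log2 ratios of 2.58 (2.29 to 2.86) and 1.13 (0.99 to 1.26). By sub-cluster it was low in the *Car4* cells (24.3 and 41.5 CPM) and high in the arterial-like (405 and 523 CPM) and venous-like cells (180.3 and 451 CPM). The endothelial *Vegfc* RNA was therefore held mainly by the cells at both ends of the capillary bed, which are also the cells with less *Kdr*.

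The strain ratio of *Vegfc* depended on which cells were summed. Within sub-clusters it was lower in NOD/ShiLtJ throughout the larger ones, with log2 ratios of -0.77 (-1.20 to -0.37) in the *Car4*, -0.37 (-0.59 to -0.16) in the arterial-like and -1.32 (-1.67 to -0.99) in the venous-like cells, with the T cell gene-led sub-cluster an exception at 1.34 (-0.01 to 3.04). In the arterial gate it was higher in NOD/ShiLtJ, log2 0.32 (0.12 to 0.52), but 33 of its 282 NOD/ShiLtJ UMIs came from 3 cells of the T cell gene-led sub-cluster. Without the sub-clusters led by macrophage or T cell genes the ratio was 0.20. Arterial-like sub-cluster cells made up 41.6% of that gate in NOD/ShiLtJ and 29.1% in CD1, and held 79.1% and 76.4% of its *Vegfc* UMIs. In the capillary gate the venous-like cells made up 9.50% and 9.18% of the cells and held 45.5% and 52.7% of the *Vegfc* UMIs, and within those cells *Vegfc* stood at 188 and 460 CPM, log2 -1.29 (-1.66 to -0.94). The *Vegfc* ratio also moved with depth, from -1.31 in cells of 500 to under 2000 UMIs to -0.08 in cells of 10000 UMIs or more.

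Across the lineages, the receptor genes of blood endothelium were held almost wholly by endothelial-like cells. These cells contributed 13.8% of all UMIs of the kept NOD/ShiLtJ barcodes and 37.5% of those of CD1, and held 92.6% and 92.5% of the *Kdr* UMIs, 94.0% and 92.9% of *Flt1*, 94.6% and 93.4% of *Tek*, 94.0% and 91.6% of *Tie1* and 86.5% and 92.0% of *Flt4*. The shares of the neuropilins were lower and differed between the libraries, at 61.6% and 83.8% for *Nrp1* and 62.1% and 85.0% for *Nrp2*.

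*Nrp1* outside the endothelium was found in T-like cells, which held 19.1% of its UMIs in NOD/ShiLtJ and 0.243% in CD1, where 2335 and 139 such cells were found. T-like cells contributed 32.8% and 1.91% of all UMIs, so their *Nrp1* shares lay below their shares of all UMIs. The level of *Nrp1* in T-like cells was 372 and 208 CPM. A T cluster led by *Ctla4* and *Ikzf2*, genes known from regulatory T cells, carried 842 CPM in 568 NOD/ShiLtJ cells and 661 CPM in only 9 CD1 cells, while another led by *Lef1* and *Themis* carried 219 and 215 CPM. In these 2 clusters the log2 strain ratios were 0.35 (-0.10 to 0.84) and 0.03, smaller than the step in *Nrp1* between them. In macrophage-like cells *Nrp1* was higher in NOD/ShiLtJ, 511 against 346 CPM, log2 0.56 (0.49 to 0.64), opposite in direction to the endothelium. Their median depth was 3120.5 UMIs in NOD/ShiLtJ and 7179 in CD1. This class joins a cluster of 324 and 1722 barcodes (median 9107 UMIs) and another of 346 and 980 (median 1590 UMIs). The macrophage-like ratio is not split by depth or cluster here. Empty droplets held *Nrp1* at 263 and 794 CPM, so the CD1 levels in T-like and macrophage-like cells lay below them.

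*Flt4* in macrophage-like cells stood at 6.35 CPM from 24 UMIs in NOD/ShiLtJ and 0.826 CPM from 15 UMIs in CD1, both below the empty droplets (9.59 and 24.9 CPM). *Nrp2* stood at 296 and 156 CPM in mural-like and 78.0 and 75.3 CPM in fibroblast-like cells, and at 23.1 CPM in the B-like cells of NOD/ShiLtJ, near the 21.2 CPM of its empty droplets. In the mural-like class 2 of 14 and 5 of 11 barcodes were left without doublets. *Kdr* in fibroblast-like cells, 131 and 456 CPM, was at 98.8 and 254 CPM once likely doublets were removed, and was found in 5 of 35 and 14 of 34 cells, with 124 and 592 CPM in empty droplets. In NK-like cells *Kdr* went from 10.4 and 59.9 CPM to 1.49 and 6.12 CPM without doublets.

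The 3 ligand genes had different sources. *Vegfa*, the main ligand of VEGFR2, was counted only 117 times in NOD/ShiLtJ and 262 times in CD1. Endothelial-like cells held 59.0% and 66.0% of these UMIs and fibroblast-like cells 16.2% and 6.49%. The highest level of *Vegfa* among the named classes was in myoepithelial-like cells of CD1, 157 CPM (106 to 225) from 30 UMIs in 14 cells. Of these UMIs 11 came from 1 cell, and 0 of the 14 cells were left once likely doublets were removed. In NOD/ShiLtJ there were 2 such cells with 1 UMI. In fibroblast-like cells *Vegfa* stood at 28.0 and 33.7 CPM and in endothelial-like cells at 11.5 and 9.34 CPM, where empty droplets held 2.65 and 8.01 CPM, against 0.264 and 0.330 CPM in macrophage-like cells. The CD1 fibroblast-like level of *Vegfa* went to 0 at a clustering resolution of 1 and to 11.6 CPM when each barcode was named by its own markers, while that of NOD/ShiLtJ was 38.4 and 35.2 CPM. Epithelial cells had been depleted by EpCAM, so the sums hold few of the cells that may make *Vegfa* in the intact gland.

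*Vegfb*, a ligand of VEGFR1, was highest in the epithelial-like cells that remained, at 223 CPM (115 to 390) in NOD/ShiLtJ and 199 CPM (153 to 254) in CD1, from 12 and 64 UMIs. The strains did not differ there beyond counting error. In macrophage-like cells *Vegfb* stood at 11.4 and 16.7 CPM, log2 -0.56 (-1.05 to -0.09), close to the 10.0 and 14.8 CPM of the empty droplets. In mural-like cells it stood at 56.4 and 44.6 CPM from 4 and 6 UMIs, and at 0 in NOD/ShiLtJ without doublets.

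*Vegfc* had a source outside the stroma. NK-like cells carried it at 45.3 CPM (40.9 to 50.1) in NOD/ShiLtJ and 113 CPM (104 to 123) in CD1, log2 -1.32 (-1.51 to -1.13). They held 40.4% and 19.1% of all its UMIs, and contributed 19.2% and 9.60% of the UMIs of all genes. *Vegfc* was found in 167 of 949 NOD/ShiLtJ NK-like cells (17.6%) and 187 of 411 in CD1 (45.5%). No more than 3.96% of its UMIs came from a single cell. These shares are without thinning, and the median depth of the NK-like cells was 7929 and 10193 UMIs. The classes also differed in markers, with the T cell list at 1477 and 449 CPM and the NK list at 4137 and 5437 CPM. The 2 larger of the 3 NK-like clusters showed *Vegfc*, at 37.2 and 108 CPM in the cluster led by *Xcl1* and 61.1 and 133 CPM in the cluster led by *Klra4*. The other NK-like cluster, of 5 and 17 deep barcodes, had 1 and 26 UMIs of *Vegfc*. In T-like cells *Vegfc* stood at 1.90 and 10.6 CPM and in macrophage-like cells at 1.59 and 1.98 CPM, below the 12.7 and 31.2 CPM of the empty droplets. Plasma-like cells of CD1 had 64 UMIs of *Vegfc* in 13 cells, of which 31 came from 1 cell and 1 was left once doublets were removed. Without doublets the NK-like levels were 49.1 and 119 CPM. Unlike *Kdr* in the same cells, *Vegfc* was thus not reduced when doublets were removed.

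**Figure D5:**
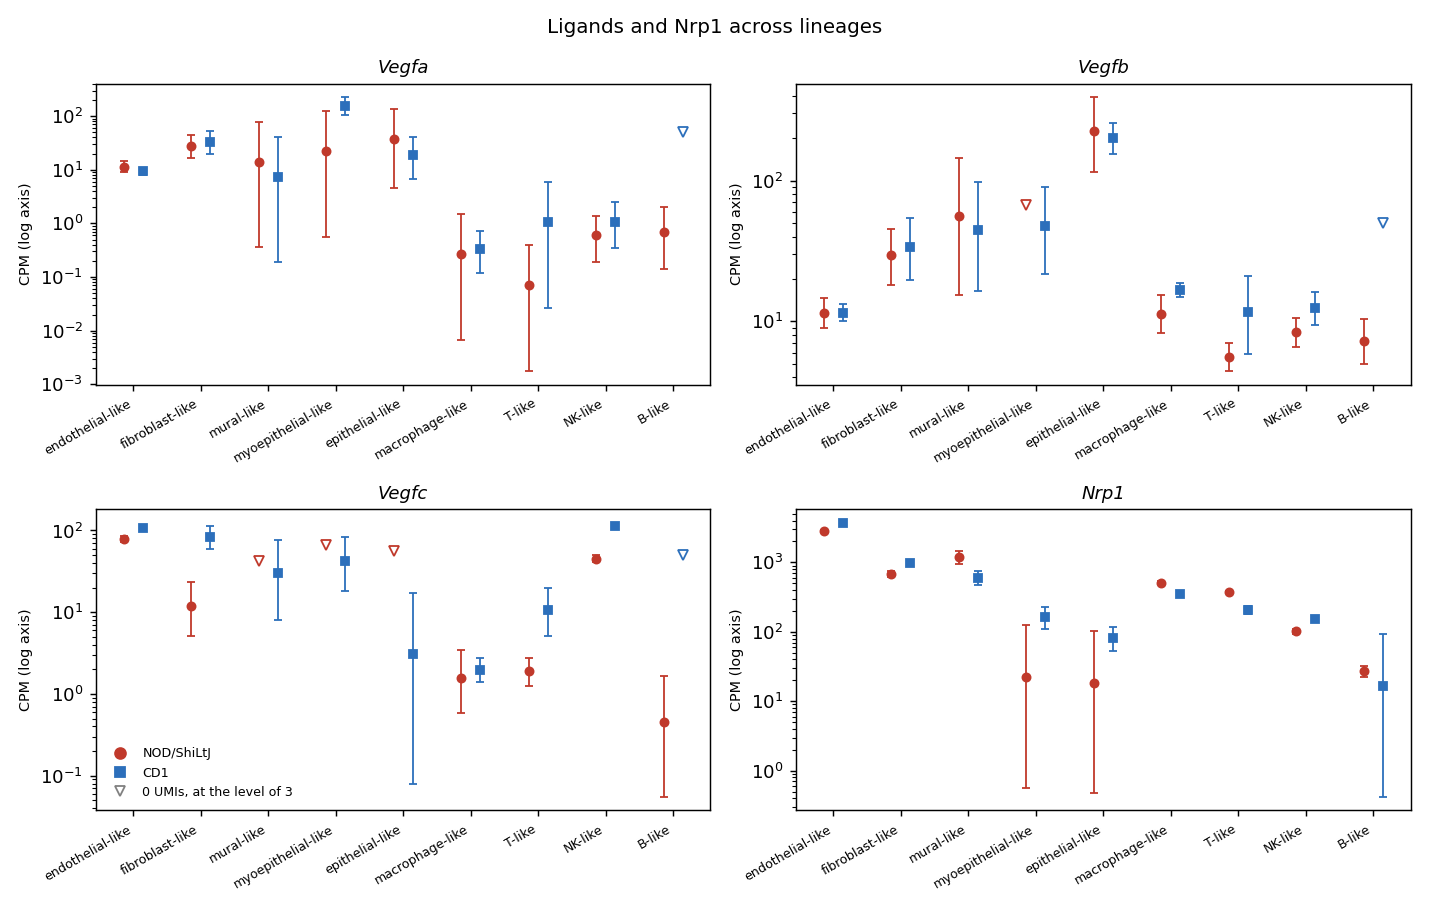
Levels of *Vegfa*, *Vegfb*, *Vegfc* and *Nrp1* (CPM, log axis) in 9 lineages of the NOD/ShiLtJ (circles) and CD1 (squares) libraries, with exact 95% Poisson intervals and open triangles at the level of 3 UMIs where none was counted. *Vegfc* was high in NK-like as well as endothelial-like cells, and *Vegfb* in epithelial-like cells. The CD1 B-like class held 9 cells and the NOD/ShiLtJ myoepithelial-like class 2.

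*Angpt1*, the agonist of Tie2, which is no member but its ligand, stood at 324 and 186 CPM in mural-like cells, at 79.5 and 75.3 CPM in fibroblast-like cells and at 0.167 and 0.216 CPM in endothelial-like cells. *Angpt2*, which can oppose it, stood at 127 and 89.3 CPM in mural-like cells and at 11.7 and 17.8 CPM in endothelial-like cells, log2 -0.61. The endothelial *Angpt2* levels lay above those of the empty droplets (2.25 and 5.93 CPM), whereas endothelial *Angpt1* lay below them (1.02 and 3.86 CPM). The mural-like sums come from 14 and 11 barcodes, of which 2 and 5 were left once likely doublets were removed.

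A list of 52 other genes of the VEGF and angiopoietin pathways was compared between strains in the endothelial-like cells. Of the 43 with at least 20 UMIs, 4 were past 2-fold higher in NOD/ShiLtJ (*Sh2d2a*, *Prkcb*, *Egr3* and *Sema3a*) and 2 lower (*Apln* and *Hlx*), with a median log2 ratio of 0.04 against 0.08 over all genes. Together these are 6 of 43, where 12% of all genes were past 2-fold. Without the sub-clusters led by macrophage or T cell genes, 42 genes remained testable. Of these 2 were higher (*Egr3* 1.33 and *Sema3a* 1.84) and 2 lower (*Apln* and *Hlx*). *Sema3a* rests there on 14 and 13 UMIs (interval 0.64 to 3.05) and *Apln* on 11 and 99 (-2.49 to -0.54). The interval of *Egr3* (0.77 to 1.88) also includes ratios under 2-fold, and only that of *Hlx* (-1.52 to -1.23) does not. *Prkcb*, a kinase abundant in lymphocytes, went from 1.75 to 0.71.

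The group of VEGF target genes had a median log2 ratio of -0.35 over 10 genes, with 1 higher and 2 lower past 2-fold, where 12% of all genes were past it. *Esm1*, a tip-cell gene induced by VEGF-A, stood at 156 CPM in NOD/ShiLtJ and 273 in CD1, log2 -0.80. It is among the leading genes of a sub-cluster of 135 of the 953 NOD/ShiLtJ and 470 of the 2455 CD1 cells. The *Esm1* ratio over all endothelial-like cells does not separate its level from the share of those cells. *Apln* stood at 1.83 and 5.40 CPM, *Hlx* at 77.3 and 208 CPM, *Dll4*, a Notch ligand, at log2 -0.44 and *Nos3*, the endothelial nitric oxide synthase, at -0.40. *Egr3*, an immediate early gene that VEGF also induces, went the other way at 1.56. Without the sub-clusters led by macrophage or T cell genes, *Flrt2* was also higher, at 0.43 (0.23 to 0.64). The remaining targets stood there at -0.23 (*Aplnr*), -0.20 (*Hey1*) and -0.01 (*Rcan1*). The signalling genes had a median of 0.29 over 12 genes, with *Shb*, an adaptor of VEGFR2, at 0.76 and *Gab1* at 0.53. Of the same group *Akt1* and *Grb10* were lower, at -0.30 and -0.27 without the sub-clusters led by macrophage or T cell genes. The co-receptors and partners had a median of -0.05 over 8 genes, with *Ptprb*, the phosphatase of Tie2, at -0.01. The medians of the other groups were -0.13 (ligands, 2 genes), 0.16 (neuropilin and plexin ligands, 4), -0.47 (matrix and processing, 2) and 0.17 (oxygen sensing, 5).

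Over 19 sums of classes and libraries, the genes whose levels tracked *Kdr*, *Tek* and *Tie1* most closely were endothelial genes. By the Pearson correlation of log2(CPM + 10), the closest to *Kdr* was *Plvap*, which codes for the fenestral diaphragm protein (0.996), the closest to *Tek* was *Fgd5* (0.998), to *Tie1* *Myct1* (0.997), to *Flt1* *Plcb1* (0.994) and to *Flt4* *Pcdh1* (0.992). The values were lower for *Nrp1* (*Lxn*, 0.968), *Vegfa* (*Amot*, 0.967) and *Nrp2* (*Dmwd*, 0.960). The capillary sums were gated on *Plvap*, so its value with *Kdr* is not independent of the gate. Most of the sums are of classes outside the endothelium, where endothelial genes are low together. The sums also share 2 libraries, so all these values describe likeness only.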

How the data were processed

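Single-cell RNA was measured in 1 library per strain, pooled from several mice. The counts are UMI counts per gene and barcode as the authors deposited them, per the file headers from 10x Genomics processing without a cell filter. The submitters' processing notes name Cell Ranger 8.0.0, Seurat 5.0.1, R 4.3.1 and GRCm39. The libraries held 52790319 (NOD/ShiLtJ) and 56483149 (CD1) UMIs over 1298073 and 1331542 barcodes.

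Barcodes with at least 500 UMIs and 300 genes were kept, with no doublet or mitochondrial filter in the main values. Scrublet in scanpy 1.11.5 marked the 338 and 394 barcodes removed in an alternative. In Seurat 5.3.0 (R 4.3.3), 2000 variable features were joined by CCA over 30 dimensions and clustered at resolution 0.5, and clusters were named from marker lists. The features were chosen without the 10 members and the pathway list, except *Cdh5*, which is also an endothelial marker. The members and lists were chosen with earlier results of these data known. All 10 members are named by rule, with the gene most like a member. By the same rule any pathway gene could be named, and not all of them are. Genes that lead a cluster were named after their values were seen. UMIs were summed per class and library. CPM have exact Poisson, log2 ratios conditional binomial and shares Clopper-Pearson 95% intervals (scipy 1.17.1). Only the ratio interval was run on simulated sums. These were Poisson counts without spread between cells, so they cannot show how it holds for real cells. PCR duplicates are removed by UMIs, and intervals cover counting error only. Genes needed 20 UMIs over both sums to enter a count past 2-fold. Free RNA was taken from droplets of 10 to 100 UMIs. Promoters are RefSeq windows on GRCm38.p6, another build than that of the counts.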

Additional observations from a re-analysis of the deposited data

How the results depend on the processing

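No test was possible with 1 library per strain, and no replicate could be left out. No paired analysis was possible because each strain has 1 library. Of 832 member log2 ratios under the alternatives, 676 stayed within the interval of the value reported, 156 lay outside it, and 0 of those past 2-fold reversed. The endothelial *Kdr* ratio ran from -0.64 (median-of-ratios scaling) to -0.36 (free RNA subtracted), that of *Nrp1* from -0.44 to -0.16, that of *Flt1* from -0.28 to 0.01 and that of *Tek* from 0.14 to 0.43. *Vegfc* in the capillary gate ran from -1.24 to -0.77, so the count of members past 2-fold there went from 1 to 0 with free RNA subtracted, with gates at 2 UMIs, with gates on thinned cells and with sub-clusters as zones. In the arterial gate the count went from 0 to 1 (*Vegfb*) with cells weighted equally, with gates at 2 UMIs and with sub-clusters, and *Vegfc* there went from 0.32 to -0.37 with sub-clusters. Venous *Nrp1* ran from -1.80 to -0.15 and venous *Kdr* from -0.79 to 0.36 (thinned gates). In the venous gate the count went from 1 to 0 at a limit of 10% mitochondrial UMIs and with cells weighted equally. Between arterial and capillary cells the count went from 1 to 2 (gates at 2 UMIs) and 5 (sub-clusters) in NOD/ShiLtJ and from 1 to 2 (thinned gates) and 3 (sub-clusters) in CD1. Between venous and capillary cells it went from 3 to 7 (gates at 2 UMIs) and 5 (thinned gates) in NOD/ShiLtJ and from 1 to 7 under both in CD1. *Vegfb* in epithelial-like cells went from 223 to 110.3 CPM in NOD/ShiLtJ and from 199 to 152 CPM in CD1 when each barcode was named by its own markers. The pathway genes higher past 2-fold went from 4 to 2 with doublets removed and with free RNA subtracted. Without a minimum beyond 1 UMI, 8749 genes were past 2-fold in place of 1702. The cause was not tested for these changes. Leaving out the sub-clusters led by macrophage or T cell genes, the shared barcodes and cells outside 5000 to under 10000 UMIs were chosen after seeing the data. The venous gate, with 12 and 20 cells, and *Vegfa* and *Vegfb* are limited by depth.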

Other observations

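A cluster of 161 NOD/ShiLtJ and 463 CD1 barcodes with a median of 1106 UMIs, with *Rbp7* and *Fabp4* among its leading genes, stayed unnamed and outside the endothelial-like class. It carried *Kdr* at 1271 and 2042 CPM, log2 -0.68, *Flt1* at 2377 and 3161 CPM and *Nrp1* at 1366 and 2051 CPM. A further unnamed cluster of 7 and 86 barcodes, deep at a median of 16846 UMIs and led by macrophage genes such as *Cx3cr1* and *Csf1r*, carried *Kdr* at 1289 and 1293 CPM and *Flt1* at 2835 and 2439 CPM. Neither cluster enters a log2 ratio in the text above, but both are in the totals behind the lineage shares. The first held 2.14% and 2.40% of the *Kdr* UMIs of NOD/ShiLtJ and CD1, and the second 1.53% and 3.35%.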
